A study of Mus musculus with 16 samples.

Results

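Brain RNA of newborn mice lacking connexin 43 was compared with brain RNA of newborn wild-type mice. The comparison rests on 8 of the 16 arrays of the study, 4 for Cx43 null and 4 for wild-type brain, chosen by their titles alone. The Cx43 null mice are labelled C57BL and the wild-type mice C57BL/6j, and both are labelled neonatal. The labels name neither the null allele nor the sex of the pups, and do not tell if RNA of 1 pup or of several made up a sample. The p-values thus cover the spread between these samples, which may be technical. The other 8 arrays, 4 of Cx43 heterozygous and 4 of Cx32 null neonatal C57BL brain, entered the fit for its estimate of spread. Every array held cDNA with 2 colours: brain was labelled with Cy3, beside a Cy5 reference pooled from adult aorta, brain, heart, kidney, liver, lung, gonads, spleen and stomach of both sexes. For wild-type replicates 3 and 4 the labels give only the dye of the reference, and for replicate 3 the channel label carries the number of replicate 2; its title was followed.

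Gja1 encodes connexin 43, the protein from which astrocytes, radial glia, meningeal cells and many cells outside the brain build gap junctions. Connexins assemble into channels that dock with those of a neighbouring cell and pass ions and small molecules such as second messengers and metabolites. Radial glia of the developing cortex are joined by these junctions, and neurons migrate along their fibres. The tail of connexin 43 inside the cell also binds junction and cytoskeletal proteins, among them beta-catenin. Mice without connexin 43 die around birth from a defect of the outflow tract of the heart, so that their brain can be studied only up to that age.

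Each value below is a log ratio of brain to reference after the median of the array was subtracted, read as log2. The labels state neither the base nor which channel is the numerator. The likely direction is that of brain over reference, since the median of 15 neuronal genes lay between 2.06 and 2.84 on the 8 arrays and that of 17 genes of the adult reference tissues between -5.32 and -3.75. Folds hold only for base 2, and rises and falls only for that direction. A level cannot be compared between genes on this scale, because each gene has its own level in the reference. In whole brain, fewer cells of a type and less RNA per cell cannot be told apart.

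The arrays of the 2 groups were not equally alike. Cx43 null replicate 1 correlated with wild-type replicates 2, 3 and 4 at 0.896, 0.882 and 0.892 over all spots, and with Cx43 null replicates 2, 3 and 4 at 0.899, 0.789 and 0.857. It thus lay as near to most of the wild-type arrays as to its own group. Wild-type replicate 1 stood apart from every other array, with correlations of 0.484 to 0.707 to Cx43 null and 0.683 to 0.763 to wild-type arrays. The median SD of a transcript between arrays was 0.266 in Cx43 null and 0.396 in wild-type brain, and 0.185 and 0.2 in the other 2 groups. Between 23218 and 24819 spots had a value on the Cx43 null arrays, and between 22001 and 24747 on the wild-type arrays. In 4 of 48 printed blocks of spots the values of at least 1 array were out of step with the others, and 1309 transcripts had a spot in such a block.

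**Figure D1:**
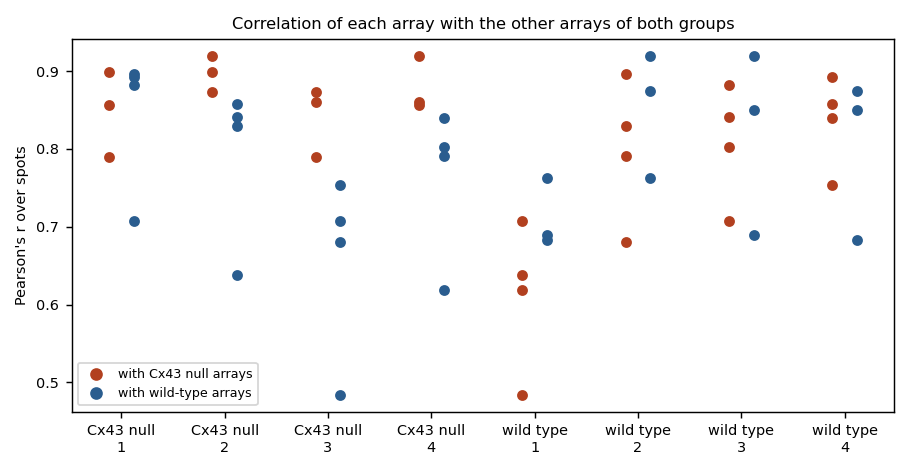
Pearson's r over spots between each of the 8 arrays (horizontal axis) and the other arrays of Cx43 null (red) and of wild-type brain (blue), without a p. Cx43 null replicate 1 has 3 wild-type arrays at 0.882 to 0.896, and wild-type replicate 1 has no correlation above 0.763.

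Gja1 was read by 1 spot. Its log2 ratio was -0.60, -1.71, -2.10 and -2.92 in the 4 Cx43 null brains, against 2.47, 1.13, 1.48 and 1.17 in the 4 wild-type brains. Every Cx43 null array lay below every wild-type array, and the highest of the Cx43 null arrays was replicate 1. The difference was -3.40 ± 0.37 SE (n = 4 arrays each; adjusted p = 0.000355), a 10.5-fold lower ratio. With 8 arrays the exact permutation test, 2-sided, gave p = 0.02857, the smallest that 70 regroupings can give. Fitted on the 8 arrays alone the adjusted p was 0.0764, and with a spread for each group 0.00656. Where on the transcript the spot lies relative to the deleted part is not stated, so the signal left in Cx43 null brain cannot be read as intact transcript. Gja1 averaged -1.36 in Cx43 heterozygous brain, and Cx43 null minus heterozygous was -0.47 (adjusted p = 0.637). Against Cx32 null brain the difference of Cx43 null brain was -1.94 (adjusted p = 0.0523). Neither passed.

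Besides Gja1, the arrays measured 1 other connexin and 1 pannexin. Gjb5, which encodes a connexin known from epithelia, lay at -0.74, -0.25, -0.67 and 0.34 in Cx43 null and -0.83, -0.44, -0.63 and -0.67 in wild-type brain, and the groups overlapped (0.31 ± 0.22 SE, adjusted p = 0.349). Panx1 encodes pannexin 1, a channel that releases ATP. It lay at 1.96, 2.07, 1.69 and 2.44 in Cx43 null and 2.91, 1.63, 1.83 and 1.61 in wild-type brain (0.05 ± 0.33 SE, adjusted p = 0.936). Wild-type replicate 1 was the highest of the 8 arrays. Panx1 was lower in Cx43 null than in Cx43 heterozygous brain, by -1.76 on the log2 scale (adjusted p = 0.013; group means 2.04 and 3.80).

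Of 14292 transcripts tested, 1543 (10.8%) differed between Cx43 null and wild-type brain at an adjusted p under 0.05: 624 (4.37%) were higher and 919 (6.43%) lower in Cx43 null brain. Of the 8654 named genes tested, 317 (3.66%) were higher and 611 (7.06%) lower. The values of the groups did not overlap for 1844 transcripts (12.9%), with Cx43 null above wild type for 949 (6.64%) and below it for 895 (6.26%). The median difference over all transcripts was 0.01 on the log2 scale.

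The number of calls rested on how the spread was estimated. The fit above gives all 4 groups 1 common spread per transcript, and the 2 groups compared here were the most variable. In the fit called a spread for each group, each group has 1 weight that is the same for all transcripts. The groups still share the spread of a transcript up to that weight. With a spread for each group 37 transcripts (0.259%) passed, 35 lower and 2 higher in Cx43 null brain. All 37 also passed with the common spread. Without adjustment 4434 transcripts (31.0%) had a p under 0.05 with the common spread and 2728 (19.1%) with a spread for each group. With the 8 arrays fitted alone 0 transcripts (0.0%) passed in limma, while 3061 (21.4%) had an unadjusted p under 0.05. Leaving out Cx43 null replicates 1 to 4 one at a time gave 2447, 508, 114 and 584 calls, and leaving out wild-type replicates 1 to 4 gave 828, 485, 1295 and 2989. In each of these 8 fits the same 111 transcripts passed, 26 higher and 85 lower. Without Cx43 null replicate 1 and wild-type replicate 1 together, a choice made after seeing the data, 2056 passed.

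**Figure D2:**
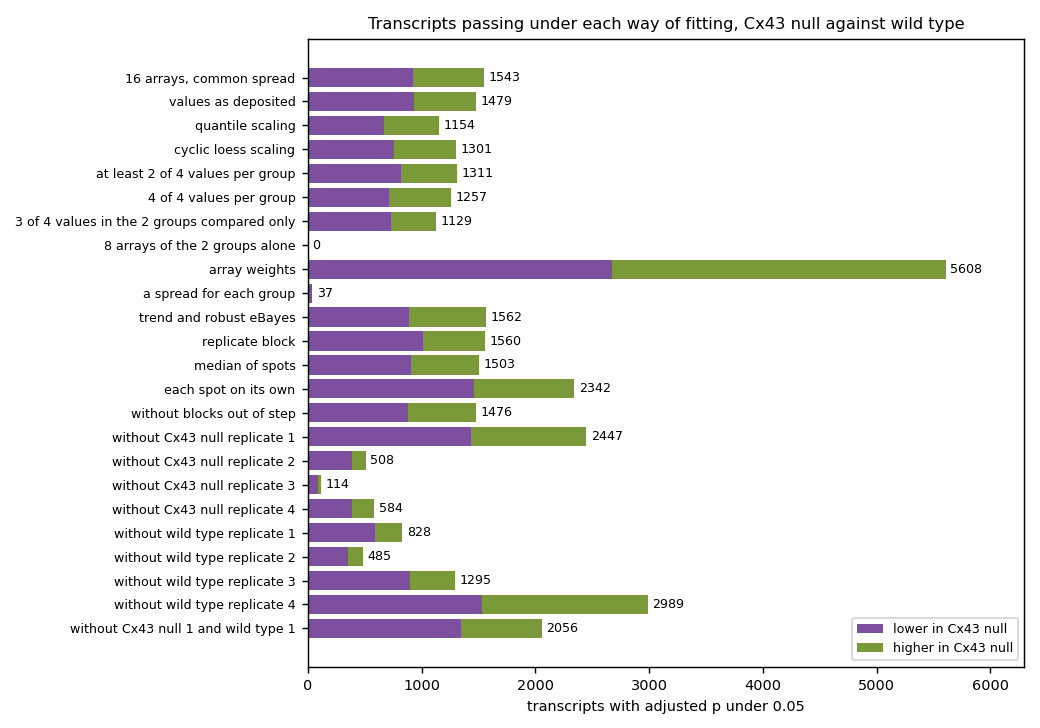
Number of transcripts with an adjusted p under 0.05 (horizontal axis) under each way of fitting (rows), divided into those lower and those higher in Cx43 null brain. The count was 1543 with a common spread over 16 arrays, 37 with a spread for each group and 0 with the 8 arrays alone.

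The arrays that stood apart had regular places among the calls. Of 722 lower transcripts with all 8 values, Cx43 null replicate 1 was the Cx43 null array nearest to wild type for 549 (76.0%), and wild-type replicate 1 the wild-type array farthest from Cx43 null for 485 (67.2%). Of 489 higher transcripts, these places were held by the same arrays for 296 (60.5%) and 341 (69.7%). Cx43 null replicate 3 was farthest from wild type for 467 (64.7%) of the lower and 362 (74.0%) of the higher transcripts. Over all 11479 transcripts with 8 values, Cx43 null replicate 1 was the highest of its group for 31.7% and the lowest for 29.3%, Cx43 null replicate 3 the lowest for 31.6% and the highest for 32.0%, and wild-type replicate 1 the highest for 41.2% and the lowest for 35.4%. What sets these arrays apart was not tested.

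Of the 37 transcripts that passed in both fits, 21 are named genes. All 21, Gja1 among them, were lower in Cx43 null brain, and none of the 21 overlapped between the groups. The part of them that fell outside the rule for naming genes was named after its values were seen. They include splicing factors, a haem transporter, transcription factors, a mitochondrial channel and a growth factor binding protein.

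The promoters of 4 of them are shown: Gja1, which is itself the targeted gene, Igfbp4, Cyth2 and Prps1. Whether their promoters have a part in the falls was not tested. The 150 bases before the transcription start are from RefSeq on build GRCm38.p6, with TATAAA (or TTTATA, the same letters on the other strand) and GC boxes (GGGCGG or CCGCCC) in capitals.
Gja1, chr10:56377150-56377299, plus strand: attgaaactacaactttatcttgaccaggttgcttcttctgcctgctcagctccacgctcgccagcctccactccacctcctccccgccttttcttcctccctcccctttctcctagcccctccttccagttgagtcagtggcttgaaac
Igfbp4, chr11:99041094-99041243, plus strand: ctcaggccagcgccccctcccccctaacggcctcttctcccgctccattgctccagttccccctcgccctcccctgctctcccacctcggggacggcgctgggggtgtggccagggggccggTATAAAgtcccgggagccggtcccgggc
Cyth2, chr7:45814317-45814466, minus strand: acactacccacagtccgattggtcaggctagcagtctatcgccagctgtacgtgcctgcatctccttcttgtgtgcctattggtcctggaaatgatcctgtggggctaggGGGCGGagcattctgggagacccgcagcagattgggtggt
Prps1, chrX:140456453-140456602, plus strand: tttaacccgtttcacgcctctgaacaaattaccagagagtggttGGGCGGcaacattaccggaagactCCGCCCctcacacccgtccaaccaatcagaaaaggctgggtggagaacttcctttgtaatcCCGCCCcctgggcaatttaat
The window of Gja1 held neither motif. Igfbp4 held 1 TATAAA that began 28 bases before the start, Cyth2 held 1 GC box at 40 bases and Prps1 held 3, at 106, 82 and 21 bases. Over the 250 bases before the start, a GC box was found for 62.3% of the 504 lower genes with an entry, 52.9% of the 238 higher genes and 58.6% of the 6922 named genes tested with one. TATAAA in either orientation was found for 8.73%, 6.72% and 6.66% of these. A match is a description of the letters, not a site.

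Igfbp4 encodes a secreted protein that binds insulin-like growth factors and is known from meninges. Its log2 ratio was -0.53, -1.31, -1.92 and -1.42 in Cx43 null brain, against 1.70, 0.97, 0.37 and -0.14 in wild-type brain, a difference of -2.02 ± 0.33 SE (adjusted p = 0.00496, and 0.0386 with a spread for each group). It fell in each fit that left out 1 array. The other 7 measured genes of insulin-like growth factors, their receptor and their binding proteins did not pass, and ranged from -0.37 for Igfbp1 to 0.60 for Igfbp5.

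Klf9, a zinc finger transcription factor known to be induced by thyroid hormone in the developing brain, was at -1.16, -1.90, -1.76 and -1.55 in Cx43 null and 0.65, 0.40, 0.17 and -0.41 in wild-type brain. It fell by 1.79 ± 0.24 SE (adjusted p = 0.00105). Nfix, a nuclear factor I gene that acts in radial glia and astrocytes, was at 2.15, 1.65, 0.96 and 1.70 against 3.79, 3.24, 3.05 and 2.80, and fell by 1.60 ± 0.24 SE (adjusted p = 0.00289). For Nfix the arrays that stood apart held the places they had in most of the lower transcripts: Cx43 null replicate 1 was the highest of its group and wild-type replicate 1 the highest of the 8. Hdgf, a growth factor of the nucleus named after hepatoma cells, was at 0.57, -0.06, -0.25 and -0.04 in Cx43 null and 2.20, 1.15, 1.40 and 0.75 in wild-type brain (-1.32 ± 0.25 SE).

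Of the 21, Prpf8, Sf3b1, Srrm1 and Lyar act on RNA in the nucleus; over the whole list of splicing genes the share that fell, 9 of 120 (7.5%), was near the 7.06% of all named genes. Prpf8 encodes the central protein of the U5 particle of the spliceosome. It lay at 1.48, 0.76, 0.22 and 0.93 in Cx43 null brain, against 3.83, 2.94, 2.23 and 1.82 in wild-type brain, and fell by 1.86 ± 0.34 SE (adjusted p = 0.00895). Sf3b1, of the U2 particle, lay at 1.94, 1.27, 1.27 and 1.49 against 2.52, 2.84, 2.88 and 2.34 and fell by 1.15 ± 0.18 SE (adjusted p = 0.00329). In Sf3b1 wild-type replicate 1 was not the highest of its group. Srrm1, a coactivator of splicing, fell by 1.26 ± 0.22 SE, and Lyar, a nucleolar protein of growing cells, by 1.73 ± 0.28 SE. The fall of Srrm1 was lost when at least 2 of 4 values per group sufficed, which changes the spots averaged (-0.23 (adjusted p = 0.616)). Lyar lay at -2.92, -1.86, -2.54 and -1.78 in Cx43 null and 0.33, -0.65, -0.86 and -0.999 in wild-type brain. It was the only one of the 15 largest falls that also differed between Cx43 null and Cx43 heterozygous brain (-1.38, adjusted p = 0.0228). Lyar averaged -2.22 in Cx32 null brain, and Cx43 null minus Cx32 null was -0.05 (adjusted p = 0.982).

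Genes of membranes and metabolism were also among the 21. Slc48a1 encodes a transporter that moves haem out of endosomes and lysosomes. It had no value on Cx43 null replicate 1, lay at 0.05, -0.38 and 0.20 in Cx43 null replicates 2, 3 and 4, against 1.60, 2.07, 2.18 and 1.35 in wild-type brain, and fell by 1.84 ± 0.22 SE (adjusted p = 0.000719). Vdac1, the main channel of the outer mitochondrial membrane, lay at 0.31, 0.57, 0.004 and 0.27 against 3.51, 2.05, 1.65 and 1.12 and fell by 1.79 ± 0.34 SE. Prps1, which makes the ribose phosphate precursor of nucleotides, lay at 1.05, 0.83, -0.16 and 0.15 against 2.44, 2.09, 1.74 and 2.05 and fell by 1.61 ± 0.24 SE. These 3 genes had no overlap between the groups; the gap was narrowest for Vdac1, between 0.57 in Cx43 null and 1.12 in wild-type brain. Cyb5r3, the NADH reductase of cytochrome b5, fell by 1.39 ± 0.23 SE.

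Cyth2, which activates Arf GTPases at the plasma membrane, lay at 1.40, 0.84, 0.13 and 0.82 in Cx43 null and 3.58, 2.68, 2.62 and 1.51 in wild-type brain (-1.80 ± 0.32 SE). Here the gap between the groups was small, from 1.40 on Cx43 null replicate 1 to 1.51 on wild-type replicate 4. Sptan1, the alpha chain of brain spectrin, lay at 1.42, 0.87, 0.77 and 1.15 against 2.24, 1.87, 2.04 and 2.67 (-1.15 ± 0.19 SE). Rnf166, a ring finger ubiquitin ligase, fell by 1.40 ± 0.25 SE, and Yipf3, a protein of the Golgi, by 1.32 ± 0.21 SE. Efnb2, the ephrin B2 ligand of Eph receptors (-1.57 ± 0.22 SE), and Tbc1d20, which switches off Rab1 (-1.17 ± 0.18 SE), each had a spot in a block that was out of step on an array.

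Muc1, a mucin of epithelia, was at -3.004, -3.04, -2.77 and -2.97 in Cx43 null brain, against -0.58, -1.22 and -1.73 on wild-type replicates 1, 2 and 3 (-1.77 ± 0.24 SE); wild-type replicate 4 had no value. It was also lower in Cx43 null than in Cx43 heterozygous brain, by -2.02 (adjusted p = 0.000938). In Cx32 null brain Muc1 was low too: it averaged -3.285, against -2.946 in Cx43 null brain (difference 0.34, adjusted p = 0.776). Gm12966, a predicted gene, had no value on Cx43 null replicate 1 and differed by -1.74 ± 0.21 SE. It was higher in Cx43 null than in Cx43 heterozygous brain, by 1.21 (adjusted p = 0.00764), so that its mean lay between those of the heterozygous and the wild-type brains.

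**Figure D3:**
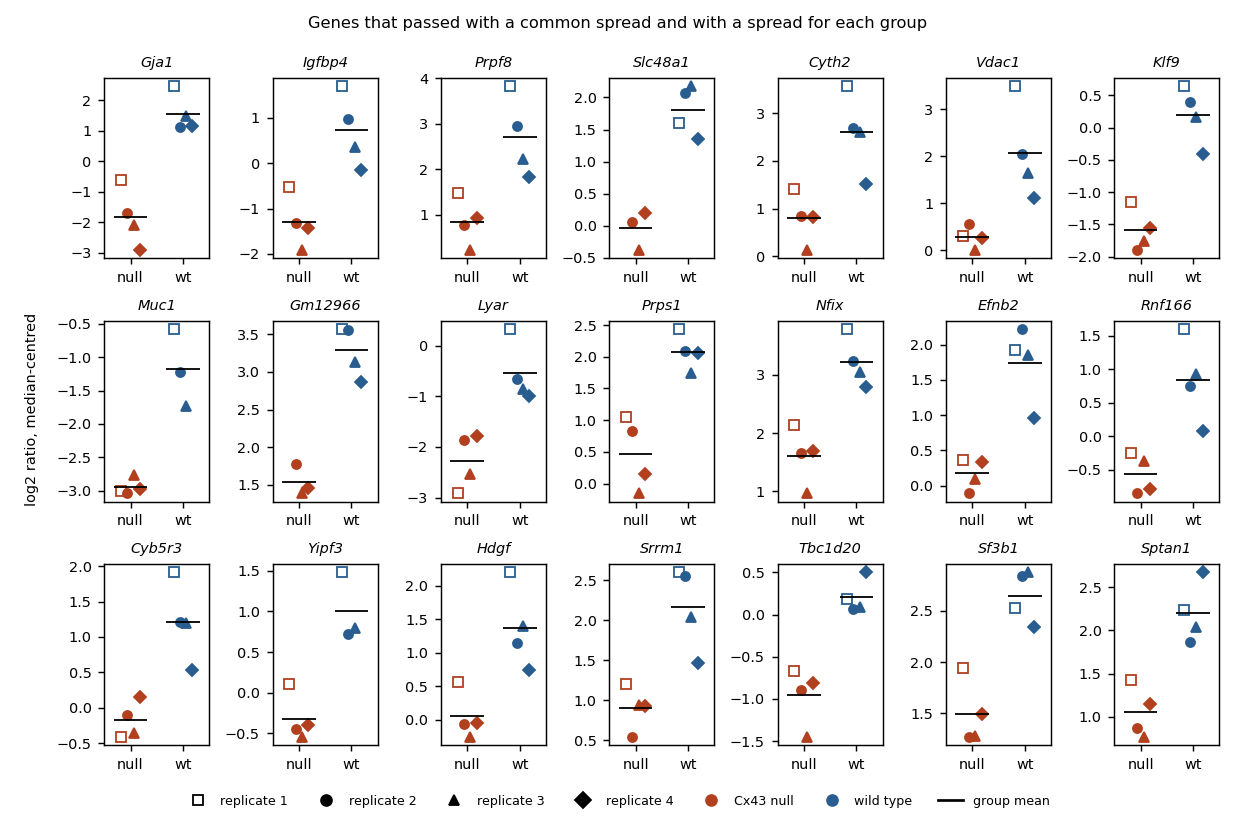
Log2 ratios, median-centred (vertical axes), of the 21 named genes that passed with a common spread and with a spread for each group, in Cx43 null (red, left) and wild-type brain (blue, right). Symbols mark replicates 1 to 4, with replicate 1 hollow, and lines the group means; the groups do not overlap for any of the 21.

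The 15 largest falls apart from Gja1 also held genes known from liver and epithelia. Hpx, the haem-binding plasma protein of liver, had the largest fall: its log2 ratio was -5.01, -6.38, -6.14 and -6.94 in Cx43 null brain, against -1.57, -4.04, -3.68 and -4.81 in wild-type brain (-2.59 ± 0.75 SE, adjusted p = 0.0389). Cyp2d9, a cytochrome of liver, differed by -1.99 ± 0.45 SE, Rdh7, a retinol dehydrogenase, by -1.57 ± 0.38 SE, and Sprr2a3, a protein of cornified epithelia, by -1.70 ± 0.42 SE. Their log2 ratios were -1.19 or lower on all 8 arrays, which puts the adult pool above the brain on every one. None of these 4 passed with a spread for each group. Leaving out 1 array, they passed in 2, 7, 3 and 3 of 8 fits. With cyclic loess scaling Hpx was at -1.60 (adjusted p = 0.0854), Cyp2d9 at -1.21 (adjusted p = 0.0246), Rdh7 at -0.75 (adjusted p = 0.139) and Sprr2a3 at -0.86 (adjusted p = 0.0935).

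Ptgds, a prostaglandin D synthase made in leptomeninges and choroid plexus, lay at 0.43, 0.62, -1.63 and -0.31 in Cx43 null brain, against 2.60, 2.22, 1.94 and 0.95 in wild-type brain (-2.15 ± 0.41 SE, adjusted p = 0.00974). It passed in each fit that left out 1 array, and had an adjusted p of 0.0762 with a spread for each group. Bag5, a partner of the chaperone Hsp70, lay at -0.24, -1.34, -2.26 and -1.10 against 1.63, 0.45, -0.14 and -0.03 (-1.71 ± 0.36 SE), and Spata5l1, an ATPase, fell by 1.84 ± 0.54 SE, though with cyclic loess scaling it was at -1.16 (adjusted p = 0.103). Of the 15 falls, 9 passed in all 8 fits that left out 1 array and 8 with a spread for each group. Wild-type replicate 1 was the highest wild-type array for 14 of the 15.

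The rises were smaller than the falls, and none of the 13 described here passed with a spread for each group. Ntn1 encodes netrin 1, which guides commissural axons and is made by the floor plate and ventricular zone. Its log2 ratio was -0.12, 0.84, 0.90 and -0.71 in Cx43 null brain, against -0.91, -1.56, -1.70 and -0.81 in wild-type brain (1.47 ± 0.34 SE, adjusted p = 0.0179). Cx43 null replicate 4 lay just above the wild-type arrays, and replicates 2 and 3 were the highest. Slc32a1 encodes the transporter that fills the vesicles of inhibitory neurons with GABA and glycine. It lay at 1.11, 2.06, 1.47 and 1.59 in Cx43 null brain, against 0.16, 0.35, 0.75 and 0.69 in wild-type brain (1.07 ± 0.21 SE, adjusted p = 0.0105). It passed in each fit that left out 1 array, but with 4 of 4 values required in each group, which changes the spots that are averaged, it was at 0.30 (adjusted p = 0.22). With each of its 2 spots fitted on its own, the higher of their adjusted p-values was 0.256.

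Tcf3, a partner of the bHLH transcription factors of neural progenitors, lay at -0.56, 0.55, 0.29 and 0.86 in Cx43 null and -0.89, -0.89, -0.75 and -0.69 in wild-type brain (1.09 ± 0.24 SE). The 4 wild-type arrays were close together, and Cx43 null replicate 1 was near them. With the filter on values set on the 2 groups alone, which changes the spots averaged, Tcf3 was at 0.24 (adjusted p = 0.451). Chst15, which sulphates chondroitin chains, lay at -0.03, 0.63, 0.73 and 0.67 against -1.05, -0.63, -0.83 and -0.13 (1.16 ± 0.24 SE). Pnck, a calcium and calmodulin dependent kinase, lay at 0.65, 1.05, 1.53 and 0.67 against -0.38, -0.18, 0.29 and 0.07 (1.03 ± 0.23 SE). Nln, the peptidase neurolysin, lay at 0.53, 0.63, 0.93 and 0.16 against -0.61, -0.16, -0.74 and -0.29 (1.01 ± 0.19 SE) and passed in each fit that left out 1 array.

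Add2, the beta chain of adducin that caps actin and binds it to spectrin, rose by 1.15 ± 0.34 SE (with array weights 0.63 (adjusted p = 0.0703)), with Cx43 null arrays between 0.19 and 1.90. Ccdc184, a coiled-coil protein, rose by 1.47 ± 0.29 SE and Fam161b by 1.24 ± 0.27 SE. Faap100, of the Fanconi anaemia core complex, rose by 1.03 ± 0.27 SE. Of 3 genes known by clone names, 9430053O09Rik lay at 1.35, 1.34, 1.05 and 1.23 in Cx43 null and -0.19, 0.16, 0.18 and 0.29 in wild-type brain, with the arrays of each group close together (1.13 ± 0.19 SE, adjusted p = 0.0068). E330029E12Rik rose by 1.13 ± 0.20 SE and A630071D13Rik by 1.02 ± 0.27 SE.

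**Figure D4:**
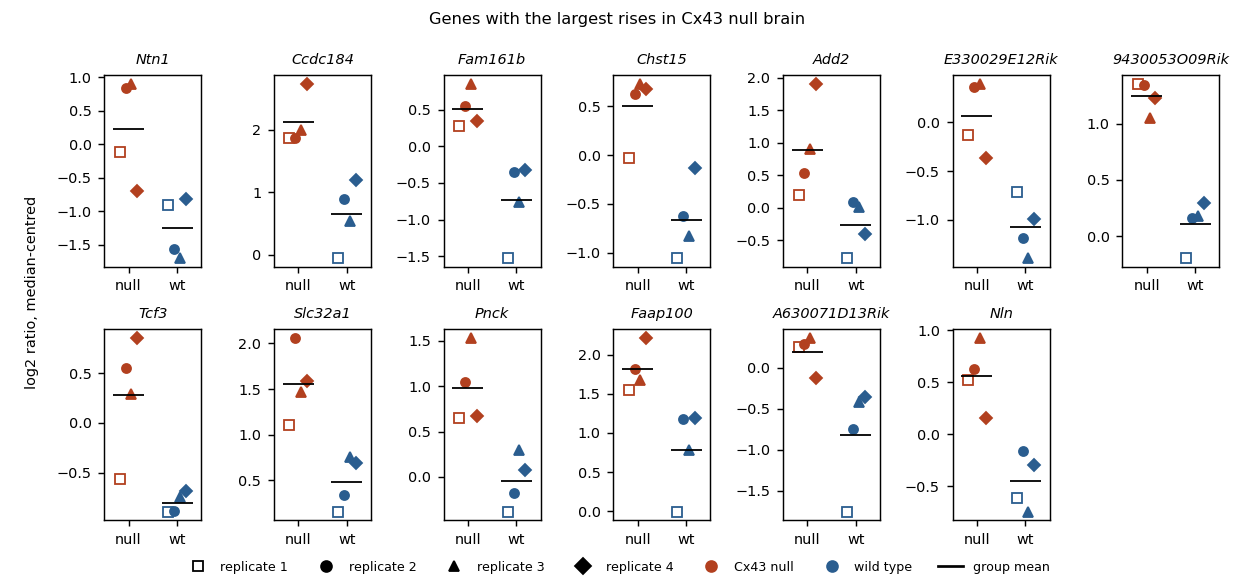
Log2 ratios, median-centred (vertical axes), of 13 of the genes with the largest rises, in Cx43 null (red, left) and wild-type brain (blue, right), with symbols for replicates 1 to 4 and lines for group means. Cx43 null replicate 1 (hollow) lies near the wild-type arrays in Tcf3, and near its own group in 9430053O09Rik.

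Genes of cell types were counted from marker lists, each read against the 3.66% of named genes that were higher and the 7.06% that were lower, and against a median difference of -0.03 over all named genes; no list was tested as a list. With a spread for each group no member of the 44 lists rose, and at most 2 members of a list fell. Counts of list members without Cx43 null replicate 3, the single array whose omission left the fewest calls (114), are not given. Neurons had 15 measured markers and none passed. Of 18 markers of astrocytes and radial glia, the cells that make connexin 43, 0 rose and 3 fell: Nfix, the metallothionein Mt2 (-1.25 ± 0.32 SE) and the matrix protein Sparcl1 (-1.18 ± 0.28 SE). The list had a median difference of -0.16. Without both arrays that stood apart Mt2 was at -0.79 (adjusted p = 0.0819). Sparcl1 overlapped between the groups, with Cx43 null replicate 1 at 1.47 and wild-type replicate 4 at 1.40. Fabp7, a marker of radial glia, differed by 0.69 ± 0.25 SE (adjusted p = 0.0821) and Slc1a3, a glutamate transporter of the same cells, by -0.81 ± 0.42 SE (adjusted p = 0.196); neither passed.

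Of 16 meningeal markers 0 rose and 3 fell, namely Ptgds, Igfbp4 and the proteoglycan Dcn (-1.45 ± 0.41 SE, no value on wild-type replicate 1). Dcn overlapped between the groups. The collagens Col1a2 and Col3a1 did not pass, and the median of the list was -0.10. The list's median ran from -0.68 to -0.02 on the Cx43 null and from -0.14 to 0.23 on the wild-type arrays, and the ranges overlapped. Of 8 markers of choroid plexus and ependyma, Aqp1, a water channel, and Cd59a fell (-0.86 ± 0.21 SE and -0.68 ± 0.20 SE), while Ttr, the most abundant product of the choroid plexus, differed by 0.23 ± 0.22 SE (adjusted p = 0.503). The median difference of this list was 0.21, above 0. Leaving out 1 array, Aqp1 passed in 4 and Cd59a in 3 of 8 fits. With each of the 2 Aqp1 spots fitted on its own, the higher adjusted p was 0.964. While Aqp1 fell against wild type, its level in Cx43 null brain was above that of Cx43 heterozygous brain (by 0.92, adjusted p = 0.0372).

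Of 12 microglial markers 3 fell, the complement genes C1qa (-1.34 ± 0.38 SE) and C1qb (-0.97 ± 0.23 SE) and the lysosomal gene Laptm5 (-0.68 ± 0.19 SE), and 1 rose, the tetraspanin Cd53 (0.85 ± 0.21 SE, no value on wild-type replicate 4). C1qa overlapped between the groups and had a spot in a block out of step. With at least 2 of 4 values per group Cd53 was at 0.20 (adjusted p = 0.66). Only 1 microglial gene fell once wild-type replicate 1 was left out. Both measured genes of the oligodendrocyte lineage overlapped between the groups: Mbp, of myelin, differed by -0.51 ± 0.25 SE (adjusted p = 0.177) and Pdgfra, of the precursors, by -0.24 ± 0.29 SE (adjusted p = 0.602). Slc2a1, the glucose transporter of the blood-brain barrier, was the only one of 11 endothelial genes that rose (0.73 ± 0.20 SE), and the groups overlapped; without the blocks out of step it was at 0.38 (adjusted p = 0.3). Among 12 genes of red blood cells Car1 passed, at 0.80 ± 0.22 SE, with overlap between the groups. With at least 2 of 4 values per group, which changes the spots averaged, its sign turned to -0.18 (adjusted p = 0.728). No globin passed.

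Genes of skin, muscle and the adult reference tissues show how far other tissue moved with the groups. Of 9 skin genes 3 fell (33.3%), among them the keratin Krt10 (-2.26 ± 0.44 SE, no value on Cx43 null replicate 1), and the list's median ran from -2.06 to -1.41 on the Cx43 null and from -2.20 to -0.78 on the wild-type arrays. Of 12 muscle genes Actn2 fell (-1.18 ± 0.34 SE), and of 17 genes of adult tissues Hpx and Plg did (11.8%). The median over these 17 genes was -4.59, -4.70, -4.38 and -5.32 on the Cx43 null arrays, against -3.75, -4.04, -4.29 and -3.75 on the wild-type arrays, so that the groups did not overlap; the list's median difference was -0.36. In the fit that left out wild-type replicate 1, a single skin gene and a single gene of the adult tissues fell. With cyclic loess scaling, Actn2 was at -0.53 (adjusted p = 0.246) and Plg at -0.92 (adjusted p = 0.243). With the filter on values set on the 2 groups alone Krt10 was at -1.44 (adjusted p = 0.0864). The part of such tissue in the results was not tested.

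Genes of cell junctions and of proteins that bind connexin 43 included calls in both directions. Ctnnb1 encodes beta-catenin, which links cadherins to actin and carries Wnt signals, and binds connexin 43. Its log2 ratio was 2.86, 2.60, 1.46 and 1.997 in Cx43 null brain, against 3.84, 3.23, 3.61 and 3.15 in wild-type brain (-1.23 ± 0.27 SE, adjusted p = 0.016), and it passed in 7 of 8 fits that left out 1 array. Of 36 genes of adherens, tight and desmosomal junctions 3 fell (8.33%, beside 7.06% of named genes): Ctnnb1, the plakoglobin gene Jup (-1.02 ± 0.19 SE, no value on Cx43 null replicate 1) and Pkp4 (-0.79 ± 0.22 SE, with overlap between the groups). In the same list 2 cadherins rose (5.56%, beside 3.66%), Cdh16 (0.91 ± 0.25 SE) and Cdh22 (0.75 ± 0.20 SE, no value on wild-type replicate 4). Cdh16 passed in 2 of 8 fits that left out 1 array. Of 25 genes whose proteins bind or phosphorylate connexin 43, Ctnnb1, the ubiquitin ligase Stub1 (-1.11 ± 0.22 SE, no value on wild-type replicate 4) and the kinase Prkce (-0.88 ± 0.20 SE, no value on Cx43 null replicate 1) fell, and Nedd4, a ubiquitin ligase known to act on connexin 43, rose (0.63 ± 0.19 SE). Without the 2 arrays that stood apart, 4 of the 25 fell and 0 rose. With quantile scaling Prkce was at -0.39 (adjusted p = 0.183) and Stub1 at -0.67 (adjusted p = 0.0553).

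Of 49 measured axon guidance genes, 7 rose (14.3%, beside 3.66% of named genes) and 2 fell, and the list's median difference was 0.30. The risers were the ligand Ntn1, the receptors Robo1 (1.06 ± 0.26 SE, no value on wild-type replicate 4), Plxna1 (1.04 ± 0.26 SE, no value on Cx43 null replicate 1), Plxnb3 (0.77 ± 0.20 SE) and Epha8 (0.98 ± 0.26 SE), and the adhesion molecules Nrcam (0.93 ± 0.23 SE, no value on wild-type replicate 4) and L1cam (0.72 ± 0.18 SE). Robo1, the Slit receptor, lay at 2.56, 2.65, 1.87 and 2.63 in Cx43 null brain, against 1.08, 1.86 and 1.17 on wild-type replicates 1, 2 and 3. L1cam lay at 2.44, 2.20, 2.57 and 2.37 in Cx43 null brain, against 1.38, 1.81, 1.73 and 1.75 in wild-type brain, with tight groups that did not overlap. The genes that fell were the ligands Efnb2 and Sema4g (-0.69 ± 0.18 SE; with quantile scaling -0.27 (adjusted p = 0.245)). Without wild-type replicate 1 the counts were 3 and 1, without both arrays that stood apart 6 and 3, and with a spread for each group 0 and 1.

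Of 19 synaptic vesicle genes Slc32a1 and Bsn, a scaffold of the release site (0.68 ± 0.19 SE), rose, and Napa, which takes SNARE complexes apart, fell (-0.98 ± 0.27 SE). These are 10.5% and 5.26%, beside 3.66% and 7.06% of named genes. Napa overlapped between the groups, had a spot in a block out of step and passed in 3 of 8 fits that left out 1 array. Of the 19, 2 rose and 6 fell when Cx43 null replicate 1 was left out, and 2 rose and 4 fell when both arrays that stood apart were. None of 12 genes of glutamate and GABA receptors and synthesis passed. Of 44 ion channel genes 4 rose (9.09%, beside 3.66%), among them Trpv2 (0.997 ± 0.24 SE) and the acid-sensing channel Asic3 (0.85 ± 0.22 SE), and 2 fell (4.55%, beside 7.06%). In Trpv2 wild-type replicate 1 lay far below the other arrays: the gene was at 0.23, 0.49, 0.57 and -0.25 in Cx43 null brain, against -1.46, -0.54, -0.48 and -0.48 in wild-type brain. Without that array Trpv2 had a difference of 0.76 (adjusted p = 0.0359). It passed in 6 of 8 fits that left out 1 array. Without Cx43 null replicate 2 or 3 it did not pass (adjusted p = 0.0577 and 0.0812). With a spread for each group its adjusted p was 0.113. Of the ion channel genes 7 rose when Cx43 null replicate 1 was left out, and 1 when wild-type replicate 1 was.

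In Wnt, Notch, BMP and FGF signalling, 3 of 47 genes fell (6.38%, beside 7.06% of named genes) and 1 rose (2.13%, beside 3.66%). Id2, an inhibitor of bHLH factors that responds to BMP, lay at 1.71, 1.34, 0.44 and 1.43 in Cx43 null brain, against 4.31, 1.94, 2.14 and 2.13 in wild-type brain (-1.40 ± 0.40 SE). Wild-type replicate 1 was far above the rest, and without it Id2 was at -0.84 (adjusted p = 0.0517). Without Cx43 null replicate 3 Id2 was at -1.14 (adjusted p = 0.143). Dkk3, of the Dickkopf family, fell by 1.01 ± 0.26 SE and Smad4, the shared partner of BMP and TGF-beta signals, by 1.20 ± 0.29 SE with overlap between the groups; with the filter on values set on the 2 groups alone Smad4 was at -0.53 (adjusted p = 0.0838). Smad7, an inhibitor of the same signals, rose by 0.80 ± 0.24 SE. Of 60 developmental transcription factors, Nfix and Otx1 (-1.48 ± 0.34 SE) fell (3.33%), while Bcl11b, which marks deep-layer cortical and striatal neurons, rose (0.67 ± 0.17 SE), as did Ascl3 (0.68 ± 0.21 SE; 3.33%). Both Otx1 and Ascl3 overlapped between the groups. Without both arrays that stood apart, 7 of the 60 rose and 4 fell. Of 83 cell cycle genes 2 rose (2.41%) and 5 fell (6.02%). In this list 8 fell when Cx43 null replicate 1 was left out and 2 when wild-type replicate 1 was. With all arrays, the shares of these signalling, transcription factor and cell cycle lists were below those of all named genes.

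Of 61 matrix genes and their proteases 6 rose (9.84%, beside 3.66% of named genes) and 5 fell (8.2%, beside 7.06%). Of these 2 rose and 4 fell when wild-type replicate 1 was left out, 5 rose and 8 fell when both arrays that stood apart were, and 0 passed with a spread for each group. Sparc, a matrix protein of glia and vessels, lay at -0.43, -0.75, -0.95 and -1.19 in Cx43 null brain, against 0.87, 0.36, 0.08 and -0.23 in wild-type brain (-1.10 ± 0.22 SE). Col18a1, a collagen of basement membranes, also fell (-0.96 ± 0.28 SE), while Nid2, the basement membrane linker nidogen 2, rose (0.77 ± 0.20 SE). Of 73 actin and myosin genes 0 rose and 11 fell (15.1%, beside 7.06% of named genes). With wild-type replicate 1 left out 5 fell and 0 rose, with Cx43 null replicate 1 left out 18 fell and 4 rose, and with a spread for each group 0 passed. Gsn, the actin-severing protein gelsolin, lay at -2.30, -3.26, -4.16 and -4.15 in Cx43 null brain, against -1.30, -2.08, -2.04 and -2.21 in wild-type brain (-1.56 ± 0.33 SE), and with cyclic loess scaling its difference was -0.95 (adjusted p = 0.0369).

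**Figure D5:**
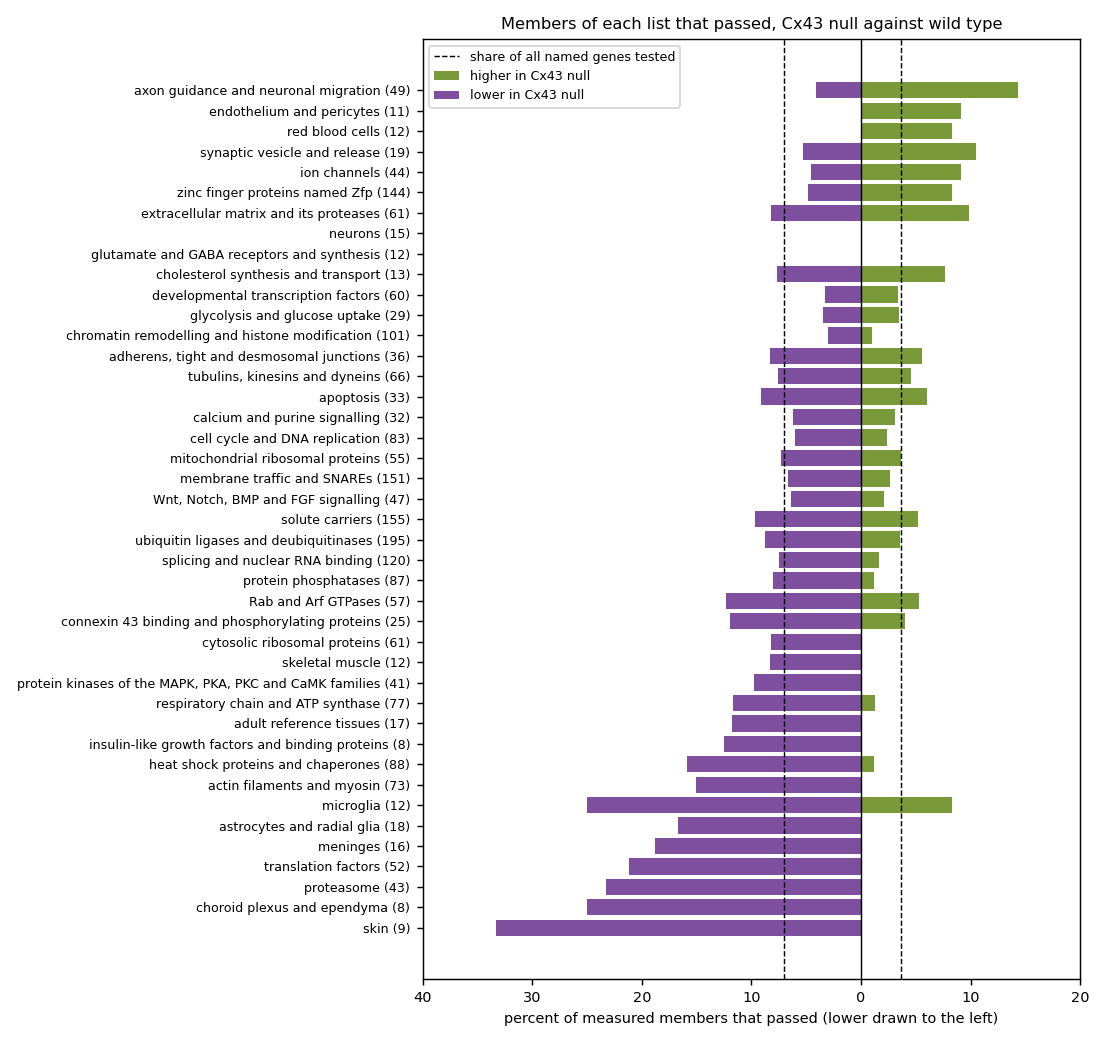
Percent of the measured members of each gene list that passed (horizontal axis), lower in Cx43 null brain to the left of 0 and higher to the right, with the number measured in parentheses; dashed lines mark the 3.66% and 7.06% of all named genes tested. Lists with at least 8 measured members are drawn, without a test; axon guidance genes reach 14.3% higher, and proteasome genes 23.3% lower.

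Among genes that make, fold and degrade proteins, falls outnumbered rises, as they did among all named genes (611 lower, 317 higher). The share that fell was near the background for cytosolic ribosomal (8.2%), mitochondrial ribosomal (7.27%) and ubiquitin ligase and deubiquitinase genes (8.72%). It was higher in the lists of translation factors, proteasome and chaperone genes. Of 52 translation factors 0 rose and 11 fell (21.2%, beside 7.06% of named genes), with a median difference of -0.33. In all, 3 subunits of initiation factor 3 fell without overlap between the groups: Eif3d (-1.20 ± 0.26 SE), Eif3b (-0.99 ± 0.22 SE) and Eif3i (-0.98 ± 0.25 SE). Eif3d lay at 0.60, 0.29, -0.58 and 0.41 in Cx43 null brain, against 2.13, 1.37, 1.11 and 0.88 in wild-type brain. The elongation factors Eef1a1 (-1.56 ± 0.33 SE) and Eef2 (-1.53 ± 0.32 SE) fell more, but overlapped, and cDNA spots of such large families can also bind related transcripts. Without the 2 arrays that stood apart 17 of the 52 fell and 0 rose, and with a spread for each group 0 did.

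Of 43 proteasome genes 0 rose and 10 fell (23.3%). Psmd13, of the regulatory lid, lay at 1.08, 0.56, -0.55 and 0.01 in Cx43 null brain, against 1.56, 1.95, 1.71 and 1.43 in wild-type brain (-1.39 ± 0.26 SE), and Psmd8 differed by -0.94 ± 0.20 SE and the catalytic subunit Psmb6 by -1.40 ± 0.40 SE. Psmb6 was at -0.84 (adjusted p = 0.0554) when wild-type replicate 1 was left out. When Cx43 null replicate 3 was left out, Psmb6 was at -1.18 (adjusted p = 0.142), and it passed in 3 of 8 such fits. Of the list 16 fell with Cx43 null replicate 1 left out, 10 with wild-type replicate 1 left out and 15 with both left out. The list's median was -0.56, and -0.42 without both arrays that stood apart. Of 88 chaperone genes 14 fell (15.9%) and 1 rose. Of the 88, 8 fell and 3 rose when wild-type replicate 1 was left out, and 25 fell and 2 rose when Cx43 null replicate 1 was. Besides Bag5, Dnajb1, a partner of Hsp70, fell (-0.93 ± 0.20 SE), as did Cct3, of the chaperonin that folds actin and tubulin (-1.02 ± 0.28 SE). Cct3 was at -0.68 (adjusted p = 0.0561) without wild-type replicate 1 and at -0.80 (adjusted p = 0.127) without Cx43 null replicate 3. Of 120 splicing genes 9 fell (7.5%), near the background, and 2 rose. With a spread for each group 0 proteasome genes, 0 chaperones and 2 splicing genes passed, the last being Prpf8 and Sf3b1.

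In mitochondria, 9 of 77 genes of the respiratory chain and ATP synthase fell (11.7%) and 1 rose. Sdhb, of complex II, lay at -0.90, -1.04, -1.48 and -1.10 in Cx43 null brain, against 0.83, -0.01, -0.26 and -0.39 in wild-type brain (-1.17 ± 0.23 SE), and Ndufs8, of complex I, differed by -1.501 ± 0.33 SE. The list's median difference was -0.32 and moved to -0.004 without wild-type replicate 1, whose own median over the list was 0.35, against -0.87 to -0.61 on the other wild-type arrays and -0.89 to -0.75 on the Cx43 null arrays. Of 61 cytosolic ribosomal protein genes 5 fell (8.2%, near the 7.06% of named genes), and the median of -0.15 became 0.14 without wild-type replicate 1. For glycolysis 1 of 29 genes fell (3.45%) and 1 rose (3.45%), with a median of -0.44. When Cx43 null replicate 1 was left out, 11 of the 29 fell and 2 rose, and when both arrays that stood apart were, 9 fell and 1 rose.

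Of 57 Rab and Arf GTPases 7 fell (12.3%) and 3 rose. Rab7, of late endosomes, lay at -0.01, 0.77, 0.43 and 0.74 in Cx43 null brain, against 2.37, 1.43, 1.44 and 1.36 in wild-type brain (-1.17 ± 0.23 SE). It passed in each fit that left out 1 array, but not with 4 of 4 values required in each group, where it was at -0.32 (adjusted p = 0.337); without both arrays that stood apart it was at -0.76 (adjusted p = 0.0077). Rab6a, of the Golgi, and Rab5c, of early endosomes, also fell (-1.31 ± 0.28 SE and -1.08 ± 0.28 SE), while Arf3 (0.80 ± 0.24 SE) and Rab1a (0.60 ± 0.17 SE) rose. With 4 of 4 values required Rab5c was at -0.55 (adjusted p = 0.366). Without wild-type replicate 1 no gene of the list rose, and Arf3 was at 0.52 (adjusted p = 0.0847). Of 144 zinc finger genes named Zfp 12 rose (8.33%, beside 3.66%) and 7 fell (4.86%, beside 7.06%). Of the 144, 6 rose and 3 fell when wild-type replicate 1 was left out, 8 rose and 8 fell when both arrays that stood apart were, and 0 passed with a spread for each group. Of those that met the naming rule, Zfp281 changed most downward (-1.22 ± 0.24 SE) and Zfp316 most upward (0.81 ± 0.22 SE). Zfp281 depended on which of its spots were averaged: with at least 2 of 4 values per group it was at -0.20 (adjusted p = 0.556). Of 155 solute carriers 8 rose (5.16%) and 15 fell (9.68%), of 151 genes of membrane traffic 4 rose (2.65%) and 10 fell (6.62%), and of 195 ubiquitin ligases and deubiquitinases 7 rose (3.59%) and 17 fell (8.72%), beside the 3.66% and 7.06% of all named genes. Leaving out wild-type replicate 1 gave 2, 3 and 2 rises and 8, 9 and 12 falls in these 3 lists, and leaving out Cx43 null replicate 1 gave 13, 6 and 10 rises and 22, 19 and 25 falls.

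The comparisons of Cx43 null brain with the other mutant lines used the same 4 Cx43 null arrays. The wild-type arrays did not enter these differences, but they entered the common spread behind the p-values. Against Cx43 heterozygous brain 208 transcripts (1.46%) passed, and against Cx32 null brain 12 (0.084%). None of the 28 genes named for the size of their change differed between Cx43 null and Cx32 null brain, and 1, Lyar, differed between Cx43 null and heterozygous brain. Klf9, for example, averaged -1.59 in Cx43 null, -1.86 in Cx43 heterozygous and -1.90 in Cx32 null brain, against 0.20 in wild-type brain, and Nfix averaged 1.61, 1.48 and 1.48, against 3.22. A p that misses the threshold does not show that the lines are alike. Since the 3 lines share the wild-type arrays, their differences from wild type are not independent.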

How the data were processed

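The authors deposited a log ratio for each of 28704 spots on 16 arrays of 2 colours, and these were read as log2. Cy3 marked the brain cDNA and Cy5 the common reference, per the labels. The log base, the numerator and the authors' normalization within an array are not given in the sources used here. No intensities were used here, so the signal over background is unknown and the number of arrays limits the precision. A single symbol was given to 18511 spots, 18267 of them through the gene identifier of the platform annotation and RefSeq; several symbols stand for 937, and 9256 have no entry.

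The median of each array was subtracted (-0.134 to 0.284 as deposited). A spot was kept with at least 3 of 4 values in each of 4 groups, which left 19951, and spots of 1 symbol were averaged, giving 14292 transcripts. The 4 group means were fitted to 16 arrays with limma 3.58.1 in R 4.3.3 (lmFit and eBayes, 2-sided), and the contrast of Cx43 null minus wild type was called where p, adjusted over all transcripts by Benjamini-Hochberg, was under 0.05. The code was tested on simulated data. Errors are standard errors of this fit.

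The genes named are Gja1; then, among named genes that passed with all 8 values, no overlap between the groups and no spot in a block out of step, the 15 largest rises and 15 largest falls; and for each of the lists described up to 3 members in each direction, with every member of the 2 shortest lists. Of the 15 rises 2 are not reported here. Genes outside this rule, including the list members that overlap between the groups or lack a value, were named after their values were seen. The arrays and the 44 gene lists were chosen with earlier results of these data known. Deviations from the group means of arrays with the same number correlated at 0.162, 0.021, 0.035 and 0.032, so the numbers were not taken to pair the arrays. Alternatives covered the scaling, the filter, the averaging of spots, the spread, the replicate number as a block and leaving out arrays.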

Additional observations from a re-analysis of the deposited data

Results flagged for a closer look

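Among the genes named here, 7 differed between Cx43 null and Cx43 heterozygous brain, although both lines carry changes of the same gene. The test was of the difference itself (limma, adjusted p over all transcripts). In that contrast 208 of 14292 transcripts (1.46%) passed. Cx43 null minus heterozygous was -1.375 for Lyar (adjusted p = 0.0228), -1.756 for Panx1 (0.013), -2.017 for Muc1 (0.000938), 0.918 for Aqp1 (0.0372), 1.208 for Gm12966 (0.00764), -1.189 for Igfbp1 (0.0112) and 0.935 for Slc2a1 (0.0305). For Aqp1 and Gm12966, which fell against wild type, the Cx43 null mean lay between the heterozygous and the wild-type means.

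In 20 groups of 4 arrays a single array lay far from the other 3, with a gap to the others, as a share of the group's range, past Dixon's critical value for 4 samples. Chance marks about 1 in 20 groups this way, and 232 groups were examined. Wild-type replicate 1 was the far array in Panx1 (2.907), Trpv2 (-1.456), Smad7 (-1.038), Id2 (4.312), Eif3i (1.734), Rab7 (2.367), Col1a2 (2.057) and Plg (-2.88). Cx43 null replicate 3 was the far array in Pdgfra (-0.969), Actn2 (-3.111), Cct3 (-0.598), Eif3b (-1.349), Zfp746 (-0.055), Col1a2 (-0.369) and Robo1 (1.873). The remaining ones were Cx43 null replicate 4 in Ccdc184 (2.738), Cx43 null replicate 1 in Chst15 (-0.027) and Eef2 (2.016), wild-type replicate 3 in Dnajb1 (-0.625) and wild-type replicate 4 in Jup (-0.062).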

How the results depend on the processing

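Of 1543 transcripts that passed, 624 higher and 919 lower in Cx43 null brain, the total stayed within 1.5 times under quantile (1154) and cyclic loess scaling (1301), values as deposited (1479), 4 of 4 (1257) or at least 2 of 4 values per group (1311), the filter on the 2 groups alone (1129, with 399 higher), trended and robust variances (1562), the median of spots (1503) and without the blocks out of step (1476). Each spot on its own gave 2342 calls, 1458 of them lower. Array weights gave 5608, 2939 higher and 2669 lower. A spread for each group gave 37, 2 higher and 35 lower, and the 8 arrays alone gave 0, 0 higher and 0 lower, with an adjusted p of 0.0764 for Gja1 at an unchanged -3.396. Leaving out 1 array gave 114 to 2989 calls, 29 to 1457 higher and 85 to 1532 lower; without Cx43 null replicates 1 to 4 the totals were 2447, 508, 114 and 584, and without wild-type replicates 1 to 4 they were 828, 485, 1295 and 2989. Gja1 ranged from -3.805 to -3.035 in these fits and passed in all 8. Why the counts differ was not tested. Without both arrays that stood apart, an alternative chosen after seeing the data, 2056 passed.

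The numbers do not pair the arrays, as given with the methods; with the replicate number as a block 1560 transcripts passed. Of the other genes named, 119 kept their direction in all alternatives that gave a value and 4 did not. Car1 (0.804) became -0.18 with at least 2 of 4 values per group and with the filter on the 2 groups alone. Col3a1 (-0.348) became 0.92 with array weights, 0.154 without wild-type replicate 1 (-0.669 to 0.154 over the fits that left out 1 array) and 0.144 without both arrays that stood apart. The remaining ones were Pdgfra, whose difference of -0.24 became 0.247 with array weights and 0.16 without Cx43 null replicate 3 (-0.396 to 0.16 over the fits that left out 1 array), and Panx1, whose 0.05 became -0.086 without Cx43 null replicate 4 and -0.075, -0.007 and -0.081 without wild-type replicates 2, 3 and 4 (-0.086 to 0.352 over these fits). Of these 4 genes, Car1 passed in the main comparison. Over all the genes named other than Gja1, 2800 values under alternatives were computed, of which 625 no longer passed and 11 newly passed. Where each spot was fitted on its own, the highest adjusted p of a gene's spots was taken.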
